A study of Mus musculus with 4 samples.

Results

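The genes described are 7 genes of cholesterol supply, chosen as a fixed list of symbols from the 32290 features of the deposited tables, of which 32285 were mouse genes and the others reporter sequences. They are Srebf2 and Insig1, which control the pathway, and Hmgcs1, Idi1, Fdft1, Sqle and Lss, enzymes that build the sterol. No gene of receptor-mediated uptake is among the 7, and uptake was covered by a separate list.

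Single-cell RNA sequencing was run on cells of mouse adipose tissue (AT), as 4 libraries, 1 for each of 4 groups. WT mice carried Tie2e-cre, TERT+/+ and mTmG, and KO mice carried Tie2e-cre, TERTfl/fl and mTmG, so all animals had the recombinase and the reporter. Each genotype was profiled in a subcutaneous (SC) and an intraperitoneal, visceral (IP) depot. The mice were 7-month-old males that had received a high-fat diet for 5 months. Tie2e was used to drive the recombinase in endothelial cells (EC), and the cells described below are mostly not EC. Whether Tert was also recombined in other cells was not tested here. How many mice a library came from is not given in the sources used here. The labels speak of cells in one place and of nuclei in another. With 1 library per group there was no test between groups, and every interval below is a 95% interval for counting error only. A difference between libraries cannot be told apart from a difference between mice or preparations.

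Cells make cholesterol from acetyl-CoA in the cytosol and endoplasmic reticulum through the mevalonate pathway and the squalene branch. Srebf2 encodes SREBP2, a transcription factor held in the membrane while sterol is plentiful and released to activate the synthesis and uptake genes when sterol falls. Insig1 encodes the membrane protein that retains the SREBP complex, and is itself a target of SREBP. AT is a main store of free cholesterol in the body.

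The filters left 968 WT and 1869 KO cells of SC and 672 WT and 518 KO cells of IP, with median depths between 6910 and 13047 UMIs (unique molecular identifiers, each standing for 1 captured transcript). Tert itself had 3, 2, 8 and 9 UMIs over all barcodes of WT SC, KO SC, WT IP and KO IP, too few to check the labels. Barcodes were shared by the KO SC and WT IP libraries in 93 cases. In 92 of these the KO SC barcode held at most 1.99% of the UMIs of the same barcode in WT IP (median 1.71%), and those were left out of KO SC. With them kept, the KO over WT log2 ratio of the 7 genes in ASC of SC was -0.32, against -0.31 without them.

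Cells were put in classes by their own marker UMIs. Adipose stromal cells (ASC), the fibroblast-like progenitors of AT, numbered 94 in WT and 129 in KO of SC, and 284 in WT and 218 in KO of IP. T cells numbered 461, 1160, 122 and 129 in the same order. B cells reached the 30-cell minimum in SC, with 298 WT and 461 KO cells. Mononuclear phagocytes (macrophages, monocytes and dendritic cells) reached it in IP, with 120 WT and 46 KO cells, and natural killer (NK) cells in WT IP with 39. EC, the cells targeted by design, stayed under the minimum in every library, with at most 18 cells. In ASC all 9 stromal markers were detected in each library, at a summed level of 26984 to 32689 CPM (UMIs of a gene per 1000000 UMIs of the class), and the T and B cell markers stood at 0.896 to 39.9 CPM. Other lists stood higher in ASC. Monocyte markers were at 828, 577, 444 and 497 CPM in WT SC, KO SC, WT IP and KO IP, red cell markers at 35.8 to 249.7 CPM and mural cell markers at 45.6 to 139.8 CPM.

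The genes lie on separate stretches of the genome (GRCm38, GENCODE), all protein coding. Srebf2 (ENSMUSG00000022463) is on the plus strand at chr15:82147181-82205379 and Sqle (ENSMUSG00000022351) on the plus strand at chr15:59315077-59331192. Hmgcs1 (ENSMUSG00000093930, chr13:119690379-119708260) and Idi1 (ENSMUSG00000058258, chr13:8885501-8892451) are both on the plus strand of chromosome 13. Insig1 (ENSMUSG00000045294) is on the plus strand at chr5:28071363-28078662, Lss (ENSMUSG00000033105) on the plus strand at chr10:76531588-76557138, and Fdft1 (ENSMUSG00000021273) on the minus strand at chr14:63145150-63179578.

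Promoter windows of 300 bases, from 250 before to 50 after the RefSeq start site (GRCm38.p6), were matched for 5 of the 7 genes, not Fdft1 and Sqle. The windows of 4 genes are printed below, 5′ to 3′ on the plus strand. Hmgcs1 and Idi1 were chosen because both differed in ASC between depots, and between KO and WT in IP, as described later. Srebf2 and Insig1 are the regulators of the same pathway. Capitals mark every match, on either strand, to TCACNCCAC (the letters of a sterol regulatory element, which SREBP binds), CCAAT (bound by NF-Y) or GGGCGG (a GC box, bound by Sp1), and no matches overlapped.
Hmgcs1, chr13:119690101-119690400: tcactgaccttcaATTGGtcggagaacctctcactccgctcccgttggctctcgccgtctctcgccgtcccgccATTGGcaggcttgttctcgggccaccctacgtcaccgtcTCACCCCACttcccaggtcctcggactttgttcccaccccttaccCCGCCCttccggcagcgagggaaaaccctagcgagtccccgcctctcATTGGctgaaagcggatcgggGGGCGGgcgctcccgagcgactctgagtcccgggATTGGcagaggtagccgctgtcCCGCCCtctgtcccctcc
Idi1, chr13:8885356-8885655: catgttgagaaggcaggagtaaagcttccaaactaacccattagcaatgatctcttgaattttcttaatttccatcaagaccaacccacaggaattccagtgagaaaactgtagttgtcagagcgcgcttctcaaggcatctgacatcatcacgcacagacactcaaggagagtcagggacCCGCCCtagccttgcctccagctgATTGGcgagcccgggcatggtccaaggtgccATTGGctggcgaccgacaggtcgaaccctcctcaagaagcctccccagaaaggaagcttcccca
Insig1, chr5:28071162-28071461: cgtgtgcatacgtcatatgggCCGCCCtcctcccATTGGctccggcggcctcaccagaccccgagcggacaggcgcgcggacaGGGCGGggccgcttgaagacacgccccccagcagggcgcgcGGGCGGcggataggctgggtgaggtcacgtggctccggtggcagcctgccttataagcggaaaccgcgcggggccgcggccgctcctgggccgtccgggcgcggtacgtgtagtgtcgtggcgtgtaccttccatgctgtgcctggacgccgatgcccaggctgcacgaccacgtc
Srebf2, chr15:82147019-82147318: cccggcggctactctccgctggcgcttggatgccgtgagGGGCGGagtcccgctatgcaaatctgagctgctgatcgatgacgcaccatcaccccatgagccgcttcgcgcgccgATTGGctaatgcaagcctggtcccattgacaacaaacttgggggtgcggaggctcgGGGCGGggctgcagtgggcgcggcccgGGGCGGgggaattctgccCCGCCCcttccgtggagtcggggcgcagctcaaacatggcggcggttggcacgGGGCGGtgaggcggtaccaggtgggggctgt

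The sterol regulatory element letters were found in 1 of the 5 windows, that of Hmgcs1, starting 137 bases before the start site, against 1.24% of all 32851 promoter windows. CCAAT and GGGCGG letters were found in 5 of 5 windows, against 37.4% and 35.7% of all windows. Hmgcs1 held 4 CCAAT and 3 GC box matches, Idi1 2 and 1, Insig1 1 and 3, Srebf2 1 and 5, and Lss 1 and 2. These are matches of letters and do not show binding, and the absence of a match says only that these letters are not in the window.

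Among classes of at least 30 cells, the summed level of the 7 genes was highest in ASC of SC. It was 315 CPM (289 to 341) in WT and 254 CPM (231 to 279) in KO of SC, and 182 CPM (171 to 193) in WT and 141 CPM (130 to 153) in KO of IP. T cells stood at 132 CPM in WT and 123 in KO of SC, and 131 in WT and 142 in KO of IP, with overlapping intervals between WT SC and the IP libraries. B cells of SC had 126 CPM in WT and 141 in KO, phagocytes of IP 148 in WT and 174 in KO, and NK cells of WT IP 110. Mesothelial cells of KO IP, with 28 cells under the minimum, had 262 CPM (237 to 290). In the order of the 13 pools, intervals separated ASC of WT SC from ASC of KO SC and the latter from ASC of WT IP, and from there on each pool's interval overlapped that of the next one.

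**Figure D1:**
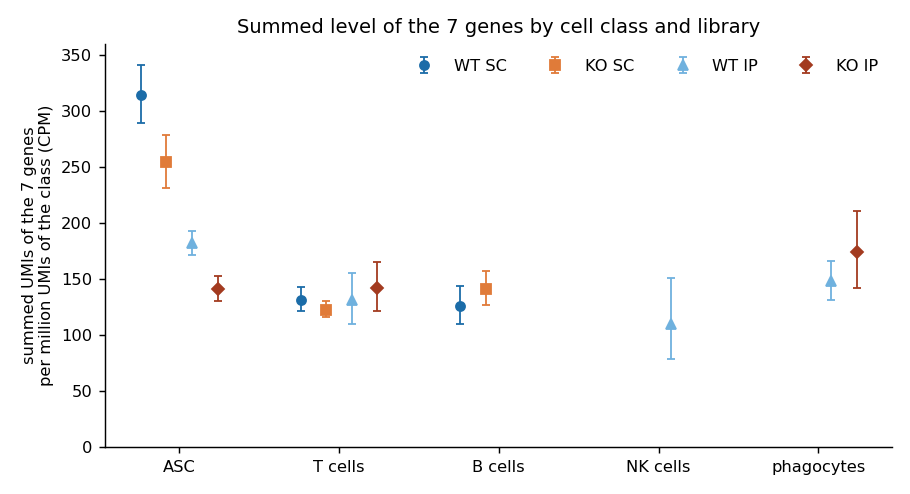
Summed level of the 7 genes (CPM of the class total, linear axis from 0) by cell class of at least 30 cells, with 1 point per library and exact Poisson 95% intervals. ASC of SC stand above all other pools plotted, at 315 CPM in WT and 254 CPM in KO, and T cells lie between 123 and 142 CPM in every library.

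Within a library, ASC exceeded T cells by 2.39-fold in WT SC (log2 1.26, 1.09 to 1.42), by 2.07-fold in KO SC (log2 1.05, 0.89 to 1.21) and by 1.39-fold in WT IP (log2 0.47, 0.21 to 0.74). In KO IP the ASC to T cell log2 ratio was -0.01 (-0.26 to 0.24). ASC were also deeper, with medians of 21248, 14246, 23098 and 20311 UMIs per cell in WT SC, KO SC, WT IP and KO IP, whereas the T cell medians lay between 7538 and 9096.

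Among the regulators, Srebf2 in ASC was at 85.6 CPM (72.7 to 100.2) in WT and 62.4 (51.2 to 75.3) in KO of SC, and 53.7 (48.0 to 59.8) in WT and 53.5 (46.9 to 60.7) in KO of IP. WT SC was the high library, and the IP libraries differed by less than the counting error. Insig1 in ASC was at 52.7 CPM (42.7 to 64.4) in WT and 60.7 (49.6 to 73.4) in KO of SC, and 32.5 (28.2 to 37.3) in WT and 26.9 (22.3 to 32.1) in KO of IP. For Insig1 the depots separated and the genotypes did not. Srebf2 stood at 75.2 and 83.4 CPM in B cells of WT and KO SC and at 64.9 and 82.0 CPM in phagocytes of WT and KO IP. In T cells of SC it was lower than in ASC beyond counting error, with log2 ratios of ASC over T cells of 0.63 (0.33 to 0.93) in WT and 0.45 (0.13 to 0.76) in KO, whereas in IP these were 0.11 (-0.32 to 0.57) and -0.02 (-0.43 to 0.40).

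Among the enzymes, Hmgcs1, the cytosolic HMG-CoA synthase of the mevalonate pathway, was at 94.4 CPM (80.8 to 110) in WT and 85.5 (72.3 to 100.4) in KO ASC of SC, and 49.9 (44.5 to 55.8) in WT and 35.8 (30.5 to 41.8) in KO ASC of IP. In the lymphoid and phagocyte pools Hmgcs1 stood between 14.5 and 26.8 CPM, below each ASC pool, but the intervals of 5 of these pools reached that of ASC of KO IP (30.5 to 41.8), namely phagocytes of WT IP (17.3 to 31.6) and KO IP (15.3 to 43.5), NK cells of WT IP (6.22 to 36.9) and T cells of KO IP (14.6 to 32.8) and WT SC (21.1 to 30.5). Idi1, which isomerises isopentenyl diphosphate, was at 40.6 CPM (31.9 to 51.0) in WT and 22.5 (16 to 30.8) in KO ASC of SC, and 21.5 (18.0 to 25.5) in WT and 10.5 (7.73 to 14.0) in KO ASC of IP. For Idi1 the WT library was above the KO library without overlap in both depots.

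Fdft1, squalene synthase, was at 11.5 CPM in WT and 3.47 in KO ASC of SC, and 8.57 in WT and 5.82 in KO ASC of IP, from 21, 6, 53 and 26 UMIs. Sqle, the squalene epoxidase and a rate-limiting step of the later pathway, was at 25.8 CPM (19.0 to 34.3) in WT and 16.8 (11.2 to 24.1) in KO ASC of SC, and 13.9 (11.1 to 17.2) in WT and 6.27 (4.17 to 9.06) in KO ASC of IP. Lss, lanosterol synthase, had 5 to 11 UMIs per ASC pool, or 1.78 to 3.84 CPM, and no difference of Lss was detectable at this depth. In T and B cells Sqle stood at 1.67 to 8.62 CPM.

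**Figure D2:**
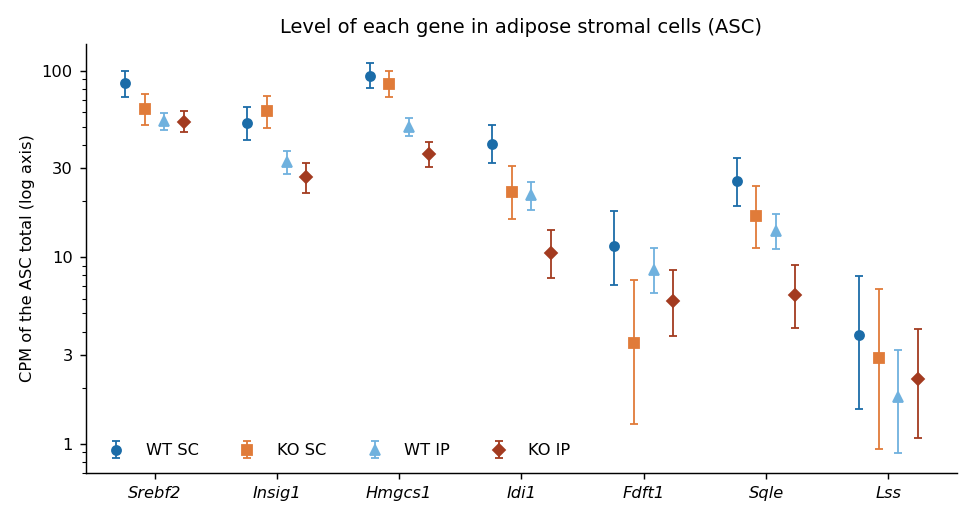
Level of each gene in ASC (CPM of the ASC total, log axis), with 1 point per library and exact Poisson 95% intervals. Idi1 and Sqle run from WT SC (40.6 and 25.8 CPM) down to KO IP (10.5 and 6.27 CPM), Insig1 separates the depots only, and Lss has intervals too wide to order the libraries.

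The first comparison asks how the genes differed between KO and WT within a depot. In ASC their sum was lower in KO in both depots, at 0.808 of the WT level in SC (log2 -0.31, -0.49 to -0.13) and 0.776 of it in IP (log2 -0.37, -0.51 to -0.22). In both depots 6 of the 7 genes lay below WT, with a median log2 ratio of -0.46 in SC and -0.48 in IP, while the median over all genes compared was -0.01 and 0.05. Whether both depots came from the same mice is not given in the sources used here, so the depots are not taken as replicates.

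Gene by gene, Idi1 was lower beyond counting error in both depots, with log2 ratios of -0.85 (-1.45 to -0.27) in SC and -1.03 (-1.54 to -0.54) in IP. Sqle was lower beyond counting error in IP (-1.15, -1.82 to -0.52), and its ratio in SC was -0.62 (-1.34 to 0.07). Hmgcs1 was lower in IP (-0.48, -0.76 to -0.20), and its ratio in SC was -0.14 (-0.47 to 0.18). Fdft1 was lower in SC (-1.73, -3.33 to -0.38), where KO had 6 UMIs, and its ratio in IP was -0.56 (-1.29 to 0.15). Pooled over UMIs, Idi1 was thus the gene of the 7 whose interval left out 0 in ASC of each depot. The gene values in SC depended on the weighting of cells. With each cell weighted equally, Idi1 in ASC of SC stood at 31.0 CPM in WT and 24.6 in KO. Hmgcs1 then stood at 88.5 and 54.1 CPM, Sqle at 22.6 and 10.5, and Fdft1 at 16.7 and 3.46. In IP, Idi1 stood at 19.9 and 8.97 CPM by that weighting. These values have no interval.

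Of the regulators, Srebf2 was lower in KO in SC (-0.46, -0.82 to -0.09) and stood at -0.00 (-0.25 to 0.24) in IP. Insig1 stood at 0.20 (-0.21 to 0.62) in SC and at -0.27 (-0.61 to 0.06) in IP, so that no difference of Insig1 between genotypes was detectable. With each cell weighted equally, Insig1 in ASC of SC stood at 51.2 CPM in WT and 41.7 in KO, so its direction there depended on the weighting. Whether the genotype difference itself differed between depots was not tested.

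Of the 7 genes, 6 had at least 20 UMIs over both ASC libraries of SC, of which 3 were lower in KO by at least 1.5-fold and 0 higher. Over all 9891 genes compared there, 9.37% were lower and 9.07% higher by that fold. In IP all 7 were compared, and 2 were lower and 0 higher, against 6.43% and 9.87% of 12341 genes.

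**Figure D3:**
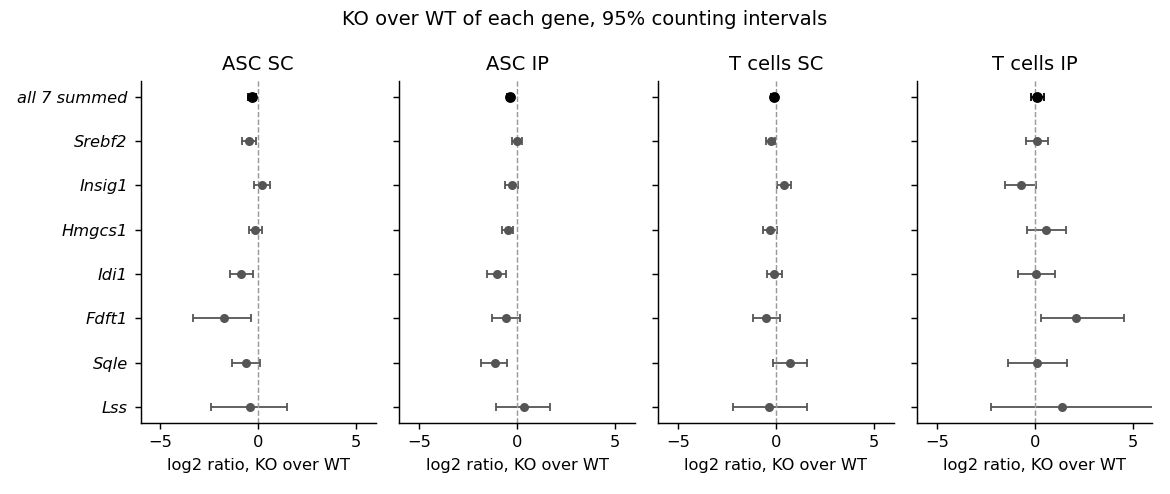
Log2 ratio of KO over WT for the 7 genes summed and for each gene, in ASC and T cells of SC and IP, with exact conditional binomial 95% intervals and a dashed line at 0. Idi1 lies left of 0 in both ASC panels (-0.85 and -1.03), whereas the T cell sums lie at -0.10 and 0.12.

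ASC were not uniform, and the SC difference was not the same in each part of them. Clusters of cells, made without these genes and the pathway lists, split the ASC into an Lpl cluster (led by Saa3, Lpl, Col6a5 and Fabp4), a Pi16 cluster (led by Igfbp5, Rorb and Dmkn, with Pi16 among the 10 leading genes) and a Myoc cluster (led by Myoc, Gfra1 and Chrdl1) of low depth. Lpl and Fabp4 are genes of the adipocyte lineage, and Pi16 marks early stromal progenitors. Pi16 was not confined to the Pi16 cluster. In SC it stood at 3523 CPM in WT and 2937 in KO there, and at 913 and 1028 CPM in the Myoc cluster. In SC the Pi16 cluster held 46.8% of ASC in WT and 51.9% in KO, the Lpl cluster 20.2% and 17.1%, and the Myoc cluster 21.3% and 19.4%. In IP the Lpl cluster held 78.5% and 73.9%, and the Pi16 cluster stayed under 15 cells in each library. The Lpl cluster was not alike in the 2 depots. Its Pi16 level was 40.6 CPM in WT and 9.19 in KO of SC, and 238 in WT and 446 in KO of IP. Its Wt1 level was 0 CPM in WT and KO of SC, and 137 in WT and 255 in KO of IP.

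In the SC Lpl cluster the 7 genes summed to 559 CPM (497 to 625) in WT and 659 CPM (585 to 740) in KO, from 19 and 22 cells. Both were above the level of each class pool given above, and above the Pi16 and Myoc clusters. The IP Lpl cluster stood at 185 CPM (174 to 196) in WT and 143 CPM (132 to 155) in KO, from 223 and 161 cells. In the SC Pi16 cluster the sum was 231 CPM (203 to 261) in WT and 124 CPM (104 to 148) in KO, from 44 and 67 cells. The Myoc cluster was low throughout, at 105.9 and 100.7 CPM in WT and KO of SC and 105.2 and 69.0 CPM in WT and KO of IP, from 7 to 19 UMIs per library.

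Within the SC Pi16 cluster the log2 ratio of KO over WT was -0.89 (-1.21 to -0.58), whereas within the SC Lpl cluster it was 0.24 (0.00 to 0.48). In the Pi16 cluster Srebf2 (-1.03, -1.61 to -0.47), Hmgcs1 (-1.03, -1.67 to -0.41), Idi1 (-1.06, -2.18 to -0.02) and Sqle (-1.85, -3.90 to -0.20) were lower in KO beyond counting error, and Insig1 stood at -0.15 (-0.82 to 0.51). With each cell weighted equally Idi1 there stood at -0.18, while Srebf2 (-0.76), Hmgcs1 (-1.06) and Sqle (-2.37) stayed below 0. In the SC Lpl cluster Insig1 (0.76, 0.18 to 1.35) and Hmgcs1 (0.51, 0.11 to 0.92) were higher in KO, Srebf2 stood at 0.18 (-0.34 to 0.70) and Idi1 at -0.62 (-1.38 to 0.10), and with each cell weighted equally Insig1 stood at 0.63 and Hmgcs1 at 0.19. In the IP Lpl cluster the sum stood at -0.36 (-0.51 to -0.22), with Idi1 at -0.98 (-1.50 to -0.49), Sqle at -1.16 (-1.85 to -0.52) and Hmgcs1 at -0.48 (-0.77 to -0.20).

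Without the Pi16 cluster, the KO over WT log2 ratio of the sum in ASC of SC was 0.04 (-0.19 to 0.27) and that of Srebf2 0.04 (-0.47 to 0.54). Pooled over UMIs, the lower sum in KO SC was thus not seen without the Pi16 cluster. That value includes the KO cell of 65 UMIs given next, and the part of this cell in it was not tested. Without the Lpl cluster the ratio of the sum was -0.84 (-1.13 to -0.55). With each cell weighted equally, the sum stood at -0.71 in the SC Pi16 cluster and 0.10 in the SC Lpl cluster. In the SC Myoc cluster it stood at -1.82, from 19 KO and 16 WT UMIs. A single KO cell of the SC Lpl cluster held 65 of that cluster's 287 UMIs of these genes, or 22.6%, and the highest WT cell held 42 of 303. The median over cells in that cluster was 386 CPM (88.2 to 1292) in WT and 458 CPM (0 to 1868) in KO. In the SC Pi16 cluster the median over cells was 176 CPM (0 to 1016) in WT and 92.1 CPM (0 to 1144) in KO, with median depths of 27380 and 16501 UMIs per cell. The part of the difference in depth in these values was not tested.

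**Figure D4:**
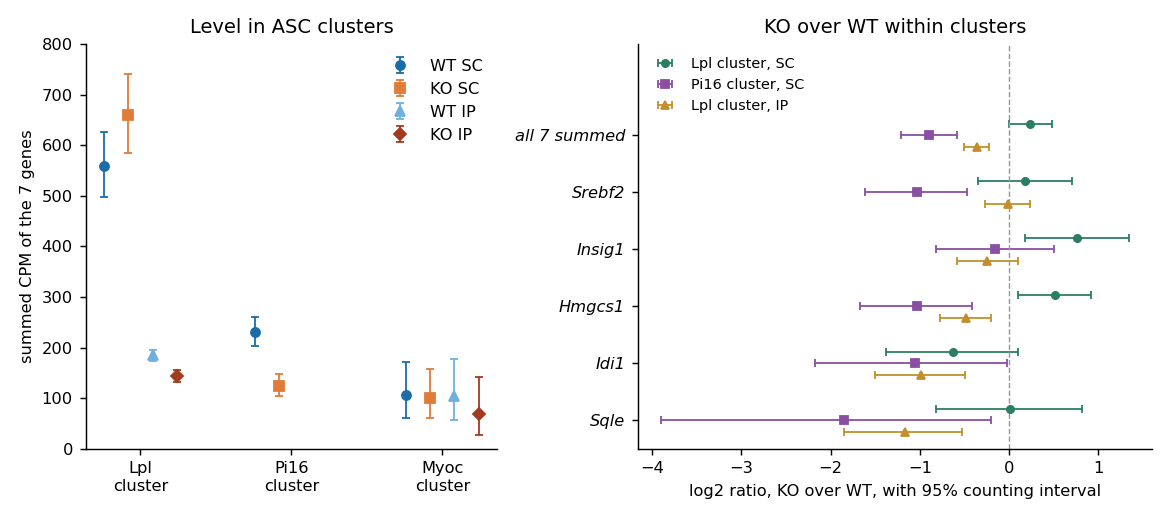
Left, summed CPM of the 7 genes in the Lpl, Pi16 and Myoc clusters of ASC by library, with Poisson 95% intervals. Right, log2 ratio of KO over WT within the SC Lpl, SC Pi16 and IP Lpl clusters, where the sum lies at 0.24, -0.89 and -0.36 and Idi1 lies below 0 in each.

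Other measures of the ASC libraries moved beside these values. The summed level of 10 immediate early and stress genes was 8151 CPM in WT and 10575 in KO ASC of SC, and 8848 in WT and 7157 in KO ASC of IP, so that KO was above WT in SC and below it in IP. A list of 10 cell-cycle genes stood at 57.6, 13.9, 18.6 and 13.4 CPM in the same order, and 1, 0, 8 and 5 ASC counted as cycling. Red cell markers stood at 110, 35.8, 249.7 and 64.9 CPM, lower in KO in both depots, and B cell markers at 3.84, 39.9, 1.78 and 2.69 CPM. In ASC of IP, markers of lymphatic EC stood at 66.9 CPM in WT and 1.12 in KO, those of mural cells at 139.8 and 73.0 CPM, and those of macrophages at 74.2 and 42.1 CPM, all lower in KO. Their part in the result was not tested, except that with cycling cells left out the sum in ASC stayed within its interval.

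The other genes of the pathway were taken as lists. Of 21 cholesterol synthesis enzymes, 17 were compared in ASC of SC, and 5 were lower in KO by at least 1.5-fold and 0 higher (median log2 ratio -0.24), against 9.37% lower and 9.07% higher of all genes. In ASC of IP all 21 were compared, and 8 were lower and 0 higher (median -0.29), against 6.43% and 9.87%. Of 17 enzymes compared in both depots 11 were below WT in both, or 64.7%, against 26.0% of 9737 genes. The list holds 5 of the 7 genes, so these counts are not separate from the values above.

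Fdps, which makes farnesyl diphosphate between Idi1 and Fdft1, was the enzyme with the largest difference shared by both depots, at 37.3 CPM in WT and 19.6 in KO of SC (log2 -0.93, -1.57 to -0.31) and 30.7 and 14.1 CPM in IP (-1.12, -1.56 to -0.70). Ggps1, which diverts the same intermediate to geranylgeranyl diphosphate, was the enzyme of the list above WT in both, at 0.11 in SC and 0.09 in IP. Enzymes picked after their values were seen were Cyp51, which removes a methyl group from lanosterol, at -0.54 in SC and -1.25 in IP, Msmo1, a sterol demethylase, at 0.25 in SC and -1.28 in IP, and Hsd17b7, a sterol reductase, at -0.10 in SC and 0.54 in IP. The enzymes thus did not all move one way.

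**Figure D5:**
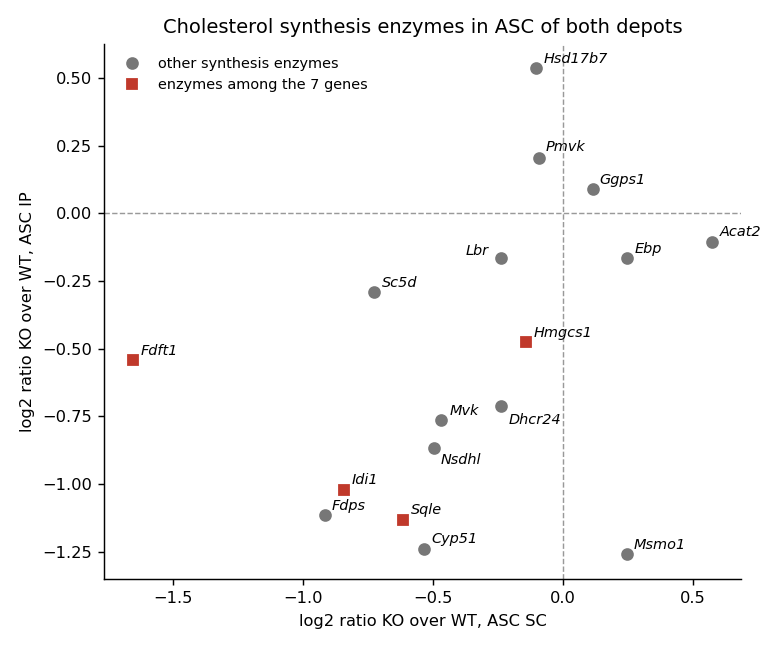
Log2 ratio of KO over WT in ASC of SC (x axis) and IP (y axis) for the 17 synthesis enzymes compared in both, after adding 0.5 UMI, with dashed lines at 0 and the members of the 7 in red squares. Below 0 on both axes lie 11 enzymes, with Idi1, Fdps and Sqle far from the lines, and Ggps1 alone is above 0 in both.

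Outside the synthesis enzymes and the cell cycle, the median log2 ratios of the lists lay between -0.19 and 0.21. The counts of these lists are to be read against the same shares of all genes, 9.37% lower and 9.07% higher in SC and 6.43% lower and 9.87% higher in IP. Of 12 regulators of SREBP, 0 were past 1.5-fold in either direction in either depot (median -0.19 in SC and 0.01 in IP). Insig2, the second retention protein, stood at -0.46 in SC and -0.14 in IP, Erlin2 at -0.38 and -0.08, and Ubxn8 at 0.13 and 0.17. Of 13 genes of uptake and lysosomal release, 10 were compared in SC (1 lower, 0 higher, median -0.03) and 12 in IP (0 lower, 1 higher, median 0.06). Npc2, which carries cholesterol out of the lysosome, was at 378 CPM in WT and 309 in KO of SC and at 562 and 431 CPM in IP, with log2 ratios of -0.29 and -0.38, while Mylip (0.01 and 0.06) and Gramd1a (0.11 and 0.05) stood near 0. Chosen after their values were seen, the receptors Vldlr (0.54, 0.13 to 0.95) and Lrp1 (-0.24, -0.36 to -0.13) and the lysosomal transporter Npc1 (0.58, 0.07 to 1.10) differed beyond counting error in SC, in both directions, and stood at -0.01, 0.05 and -0.01 in IP.

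Of 9 genes of efflux and storage, 6 were compared in SC (0 lower, 2 higher, median 0.21) and 9 in IP (1 lower, 0 higher, median 0.11). Nceh1, which hydrolyses cholesteryl esters, stood at 0.64 in SC and 0.42 in IP, Cyp27a1, which makes an oxysterol, at 0.32 and 0.45, and Nr1h2, the oxysterol receptor LXR beta, at -0.23 and -0.26. All 13 genes of fatty acid synthesis were compared, with 2 lower and 0 higher in SC (median 0.10) and 0 lower and 2 higher in IP (median 0.09). Scd1, the stearoyl-CoA desaturase, stood at 0.32 and 0.60, Acly at 0.18 and 0.37, Fasn at -0.24 and -0.18, and Fads1 at -0.84 and -0.24. In the cell-cycle list, 2 of 10 genes were compared in SC (1 lower, 0 higher) and 4 in IP (2 lower, 1 higher), against 9.37% lower and 9.07% higher of all genes in SC and 6.43% and 9.87% in IP. Top2a stood at -3.06 and -2.70.

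In T cells the sum of the 7 genes differed between KO and WT by less than the counting error in both depots, at -0.10 (-0.24 to 0.04) in SC and 0.12 (-0.22 to 0.46) in IP. The median of all genes compared was -0.14 in SC and 0.12 in IP, and the sums stood close to it. Srebf2 in T cells of SC was at 55.3 CPM in WT and 45.7 in KO (-0.28, -0.50 to -0.05), and Insig1 at 21.3 CPM in WT and 28.1 in KO (0.40, 0.06 to 0.74). Insig1 in T cells of IP was at 35.8 CPM in WT and 21.5 in KO (-0.73, -1.53 to 0.04). Fdft1 in T cells of IP was at 12.9 CPM in KO and 2.98 in WT, from 15 and 3 UMIs, a log2 ratio of 2.12 (0.29 to 4.55). Of 6 genes compared in T cells of SC, 1 was higher by at least 1.5-fold (Sqle, 3.48 CPM in WT and 5.65 in KO) and 0 lower, against 4.54% and 14.2% of all genes. Of 4 compared in T cells of IP, 0 were higher and 1 lower (Insig1), against 17.8% and 7.49%. Fdft1 was under the 20-UMI minimum there.

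The 10 cell-cycle genes differed between KO and WT T cells in opposite directions by depot. Their median log2 ratio was -1.52 in SC, where 10 of 10 were lower past the fold, against 14.2% of all genes. In IP it was 1.75, where 10 of 10 were higher, against 17.8% of all genes. Cells counted as cycling were 15 in WT and 8 in KO of SC, and 5 in WT and 4 in KO of IP. The median T cell had 0 UMIs of the list in every library, so these levels are not those of most T cells. Leaving out cycling T cells did not move the sums out of their intervals. The 15 cycling T cells of WT SC had 143 CPM against 130 CPM in the 446 others (log2 0.14, -0.23 to 0.49).

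B cells of SC stood at 0.17 (-0.08 to 0.42) for the sum, and phagocytes of IP at 0.23 (-0.10 to 0.56). The cell-cycle list differed in both. In B cells 9 of 9 genes compared were higher past the fold in KO (25.6 CPM in WT and 158 in KO, median log2 ratio 2.51). Yet 1 WT and 1 KO B cell counted as cycling, and the median B cell had 0 UMIs of the list in either library. The level of the list there is thus not that of most B cells. In phagocytes 9 of 9 were lower in KO (407 CPM in WT and 15.1 in KO, median -4.68), where 12 WT and 0 KO cells counted as cycling. With cycling cells left out the sums stood at 0.15 (-0.10 to 0.40) in B cells and 0.34 (-0.01 to 0.68) in phagocytes. Of 5 genes compared in B cells 0 were past the fold in either direction, against 5.43% higher and 10.5% lower of all genes. Of 4 compared in phagocytes 0 were past the fold, against 15.9% higher and 13.6% lower. Idi1 stood at 0.42 (-0.35 to 1.23) in B cells and at -0.21 (-1.54 to 0.95) in phagocytes, so that a difference of the size seen in ASC of IP lay outside the first interval and inside the second. The 21 synthesis enzymes had 13 compared in B cells (3 higher, 0 lower) and 12 in phagocytes (1 higher, 1 lower), and in T cells 20 in SC (2 higher, 1 lower) and 13 in IP (2 higher, 2 lower). For T cells the shares of all genes were 4.54% higher and 14.2% lower in SC, and 17.8% higher and 7.49% lower in IP.

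The T cells were also divided by Cd4, Cd8a and Cd8b1 and Foxp3 UMIs. CD4 T cells without Foxp3 and CD8 T cells differed in the sum of the 7 genes by less than the counting error in each of the 4 libraries, with log2 ratios of CD4 over CD8 of -0.15 (-0.46 to 0.15) in WT SC, 0.19 (-0.02 to 0.40) in KO SC, -0.20 (-0.93 to 0.49) in WT IP and -0.32 (-1.04 to 0.37) in KO IP. Single genes did differ beyond counting error. In SC, Hmgcs1 was lower in CD4 than in CD8 T cells of either genotype, at -0.85 (-1.72 to -0.06) for WT and -1.01 (-1.68 to -0.38) for KO, and Insig1 was higher in CD4 T cells of KO (0.73, 0.30 to 1.17). In KO IP, with 29 CD4 and 25 CD8 T cells, Srebf2 was higher in CD4 T cells (1.46, 0.12 to 2.97), from 17 and 7 UMIs. With each cell weighted equally it stood at 0.91. Idi1 there had 0 UMIs in CD4 and 13 in CD8 T cells. In WT IP, Srebf2 stood at 0.33 (-0.82 to 1.44) and Idi1 had 4 and 5 UMIs. The share of all genes that differed beyond counting error is not given here. T cells with Foxp3, the regulatory T cells, stood at 117 CPM in WT SC and 109 CPM in KO SC, with log2 ratios to other CD4 T cells of -0.10 (-0.78 to 0.52) and -0.35 (-0.86 to 0.13).

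The second comparison asks how the depots differed within a genotype. In ASC the 7 genes summed to 0.578 of the SC level in IP in WT (log2 -0.79, -0.94 to -0.64) and to 0.555 of it in KO (log2 -0.85, -1.03 to -0.67). In WT all 7 genes were lower in IP, while the median over all genes compared was 0.06 in WT and 0.09 in KO. The interval left out 0 in WT for Srebf2 (-0.67), Insig1 (-0.70), Hmgcs1 (-0.92), Idi1 (-0.92) and Sqle (-0.89). The share of all genes whose interval left out 0 is not given here. In KO, Insig1 (-1.17), Hmgcs1 (-1.26), Idi1 (-1.10) and Sqle (-1.42) were lower beyond counting error, and Srebf2 stood at -0.22 (-0.56 to 0.12).

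Of 6 genes compared in WT, 5 were lower in IP by at least 1.5-fold and 0 higher, against 14.6% and 18.8% of 11750 genes. Of 6 compared in KO, 4 were lower and 1 higher (Fdft1, with 6 UMIs in SC and 26 in IP), against 13% and 20.9% of 11410 genes. The full list of synthesis enzymes had 19 compared in each genotype, with 6 lower and 0 higher in WT (median -0.39) and 7 lower and 3 higher in KO (median -0.35).

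The depots differed in which cells made up the ASC, as given above, and the Lpl cluster was the one with over 15 cells in all 4 libraries apart from the low-depth Myoc cluster. The Lpl cluster itself differed between depots in Pi16 and Wt1, as given above. Without the Pi16 cluster the log2 ratio of IP over SC was -1.27 (-1.45 to -1.09) in WT and -1.68 (-1.88 to -1.48) in KO. Without the Lpl cluster it was -0.74 (-1.28 to -0.24) in WT and -0.31 (-1.05 to 0.35) in KO. T cells had no depot difference beyond counting error, at -0.00 (-0.29 to 0.27) in WT and 0.21 (-0.03 to 0.45) in KO, where the median of all genes stood at 0.32. Insig1 in T cells of WT was the exception among the 7 in that genotype, at 0.75 (0.15 to 1.31), and Fdft1 in T cells of KO stood at 1.42 (0.48 to 2.29).

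Across the 13 pools of cell class and library, the genes of the whole table whose log2(CPM + 10) was most like the mean of the 7 were Plagl1 (Pearson's r 0.94), Hmgn3 (0.94), Dact2 (0.94), Duoxa1 (0.94) and Wnt2 (0.93), among 12247 genes. Genes with at least 100 UMIs over the pools were ranked, and Lss was not among them. Of the others of the 7, each set against the mean of the other 6, Hmgcs1 (0.87, rank 110) and Sqle (0.87, rank 137) ranked highest. Insig1 (0.70, rank 1576) and Idi1 (0.69, rank 1672) followed, with Fdft1 (0.37, rank 4162) and Srebf2 (0.19, rank 5132) far lower. Of the pathway lists the most alike were Me1 (0.84), which makes NADPH for lipid synthesis, Fasn (0.75), Nsdhl (0.74), Srebf1 (0.72) and Vldlr (0.72). The points share libraries and depth, and the ASC pools stand apart from the rest, so r is a description of these pools.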

How the data were processed

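The authors deposited raw UMI counts for each gene in each barcode, from Chromium 3' libraries (10x Genomics). The file headers name Cell Ranger 7.0.0. The submitters' processing notes name mm10 and STAR 2.6. The use of intronic reads is not given in the sources used here.

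Barcodes under 200 genes or over 25% mitochondrial UMIs were dropped. Scrublet (scanpy 1.11.5, expected rate 5%) marked 0.420% of them as doublets, and these were removed. Kept UMIs per library ran from 8537063 to 14472778. A cell took a class with at least 3 UMIs over at least 2 of its markers, unless a rival class reached 50% of its scaled score. In ASC, 11 of 725 cells had a rival at 25% or more. Classes with at least 30 cells were used. Clusters came from Leiden clustering (2000 genes, 30 components, 15 neighbours, resolution 1) without the 7 genes and the pathway lists.

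The UMIs of all cells of a class in a library were added up and divided by the class total (CPM), with exact Poisson intervals. Ratios have exact conditional binomial intervals (scipy 1.17.1). Intervals cover counting error only. Across all genes, those with at least 20 UMIs in both pools together were compared after adding 0.5 UMI. The ratios were tested on simulated counts. These were drawn with the counting error that the intervals assume, so the test covers the calculation and not the spread between cells.

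Named beyond the 7 genes were, of each list, up to 2 genes highest and 2 lowest among those with the same sign in ASC of both depots, and the 5 most alike in pattern. The genes and lists were chosen with earlier results of these data known. The lists do not hold every gene of the pathway, and some genes are not reported here.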

Additional observations from a re-analysis of the deposited data

How the results depend on the processing

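No paired analysis was possible because each group had 1 library. Of the alternatives, the choice of stromal cells mattered most. Without the Pi16 cluster (an alternative added after seeing the data, like the other clusters and the copied barcodes), KO over WT in ASC of SC reversed to 0.042 for the sum and 0.035 for Srebf2, IP over SC in ASC became -1.27 in WT and -1.68 in KO, and 3 of 13 synthesis enzymes compared were lower past 1.5-fold in SC (11.3% of all genes). Without the Lpl cluster, KO over WT in ASC of SC was -0.84, IP over SC in KO -0.31 (Sqle reversed to 0.55), and 0 of the synthesis enzymes were lower past the fold in IP because 0 could be compared there. With each cell weighted equally, KO over WT in ASC of SC was -0.56 and the ASC levels were 275 (WT SC), 187 (KO SC), 156 (WT IP) and 115 CPM (KO IP). With median-of-ratios scaling the T cell sums were 0.043 for KO over WT in SC and -0.13 for IP over SC in KO. The causes were not tested. The KO over WT log2 ratio in ASC of IP lay between -0.44 and -0.33 under its 12 alternatives. At 1 library per group, depth limits Lss and Fdft1 most, and the spread between mice is unknown. The stricter cycling rule (6 UMIs over 3 genes) left too few cells for a value.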

Other observations

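Classes of 15 to 29 cells were not compared, and their summed levels of the 7 genes are given as values. Mesothelial cells, the lining of the visceral cavity, had 262 CPM (237 to 290) from 28 cells of KO IP, with a median depth of 52617 UMIs, and 17 of the 28 lay near the class cut. EC of WT IP had 96.1 CPM (64.4 to 138) from 18 cells. B cells of IP had 174 CPM (115 to 253) in WT and 134 CPM (87.8 to 197) in KO, from 22 and 24 cells. NK cells of WT SC had 133 CPM (79.1 to 211) from 15 cells, and neutrophils of KO IP 44.5 CPM (14.5 to 104) from 22 cells and 5 UMIs.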
